A study of Mus musculus with 2 samples.

Results

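The gene desert above Ddx18 is the last stretch of the captured part of mouse chromosome 1, from 123.48 to 124.40 Mb on the mm9 build (positions in Mb are bin starts unless an end is given). Its limits and the pair of bins described below were chosen by the measured contact values of this same map, so every value here is a description and none was tested. The members are the pairs of 10 kb bins with both ends in the desert and at least 20 kb between them, after bins with a raw total under 25% of the median bin (5594 of 22376 read pairs) were left out. Of 92 bins 86 were kept, which gave 3576 pairs of the 87161 pairs of kept bins in the map (4.1%). These pairs held 301547 of 3162676 read pairs (9.53%).

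The series studied how En1, which encodes a homeobox transcription factor that patterns the ventral side of the limb, stays expressed while the limb develops. Capture Hi-C joins DNA ends that lie close together in fixed nuclei and enriches the joined ends for 1 chosen region. Fore- and hindlimbs of wild-type embryos at E10.5, with no allele or agent named in the labels, were dissociated with trypsin, fixed in 2% PFA, cut with DpnII, religated with T4 ligase and captured with SureSelect probes. The titles of both samples carry replicate number 2, so whether the 2 samples are separate replicates is not settled by the labels. They were merged by the submitters into 1 map of 6484654 read pairs in 475 bins, so there is no replicate error and no comparison between conditions. All intervals below are 95% intervals that cover counting error only, since 1 merged map gives no spread between samples and balancing factors were taken as fixed. They count each read pair as independent, although read pairs carry no molecular identifiers. The limb's cell types are mixed in such a map, and a contact made often in few cells cannot be told apart from a contact made rarely in many.

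Gene deserts are long stretches with few or no genes, and some hold enhancers that act on distant promoters. Contacts fall with distance along a chromosome, and this decay is shallower inside a topologically associating domain, a stretch whose positions meet each other more often than they meet the next stretch. Many domain limits lie at sites bound by CTCF, a zinc-finger protein that stalls the loop-extruding cohesin complex, and loops form most often between CTCF sites whose motifs point towards each other.

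The desert covered 920000 bp and held 1 annotated gene in GENCODE M1, the pseudogene Gm15394 (ENSMUSG00000083584.1, minus strand, chr1:123865794-123867101), and 0 protein-coding genes. The nearer end of Ddx18 (ENSMUSG00000001674.5, minus strand, chr1:123450412-123464566), which encodes a DEAD-box RNA helicase, lay 15435 bp below the desert's lower edge. On the minus strand this is the end where the gene starts. The nearest protein-coding gene above was Dpp10 (ENSMUSG00000036815.8, minus strand, chr1:125228716-125942136), which encodes a dipeptidyl peptidase-like protein that associates with potassium channels. The nearer end of Dpp10, where this minus-strand gene stops, lay 828716 bp past the end of the map, so its contacts were not analysed here.

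The CTCF core consensus was searched on both strands of NCBIM37, the same assembly as mm9, since the direction of such motifs is a known feature of loop anchors. Only exact matches to a fixed core pattern were taken, so motifs that depart from it were not found. The consensus matched 4 times in the desert, each time on the plus strand, which points from the lower edge into the desert. These sequences are shown 5′ to 3′ with the core in capitals, and the match in the desert beside En1 (the En1 desert) is given for comparison.
Ddx18 desert match 1: tgacCCAGCAGGTGGCcata
Ddx18 desert match 2: aagaCCAGCAGAGGGCacca
Ddx18 desert match 3: ccctCCACCAGGTGGCctca
Ddx18 desert match 4: caagCCAGCAGAGGGCctca
En1 desert match: gctcCCAGCAGGTGGCcagg

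All these matches were intergenic. The cores lay at chr1:123484755-123484766 (match 1, 4754 bp inside the lower edge), chr1:123700111-123700122 (match 2), chr1:123951910-123951921 (match 3, in a low bin) and chr1:124032770-124032781 (match 4). The core in the desert beside En1 lay at chr1:122637715-122637726, also on the plus strand. A match was found in 4.35% of the desert's bins and in 6.11% of all 475 bins of the map, where 15 matches lay on each strand. Matches 2 and 4 had the same core, and match 1 had the same core as the match in the desert beside En1. Whether CTCF is bound at these letters was not tested.

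The desert was read less deeply than the rest of the map. Its 92 bins had a median raw total of 14791.5 read pairs (1714 to 30751), and its 86 kept bins 15450.5. The medians were 29268 (6844 to 54423) in the 55 bins of the desert beside En1 and 26658 in the 333 kept bins below. Raw totals count only partners inside the map, so bins near its end lack those above it. The median GC content was 40.2% (35.9% to 44.8%) in the desert (40.3% in its kept bins), 43.7% beside En1 and 45.9% in the kept bins below. DpnII sites per bin were alike, with medians of 26, 25 and 25. The 6 bins that were left out had totals of 1714, 3862, 4832, 4960, 5029 and 5386 read pairs, and the kept bins nearest the limit had 5954, 6634 and 7192. Every one of the 3576 pairs had at least 1 read pair (0 empty pairs), with a median of 55 and a maximum of 1027. Pairs at 500 kb or more had a median of 32 read pairs (5 to 135), so single pairs at these distances carry wide intervals.

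**Figure D1:**
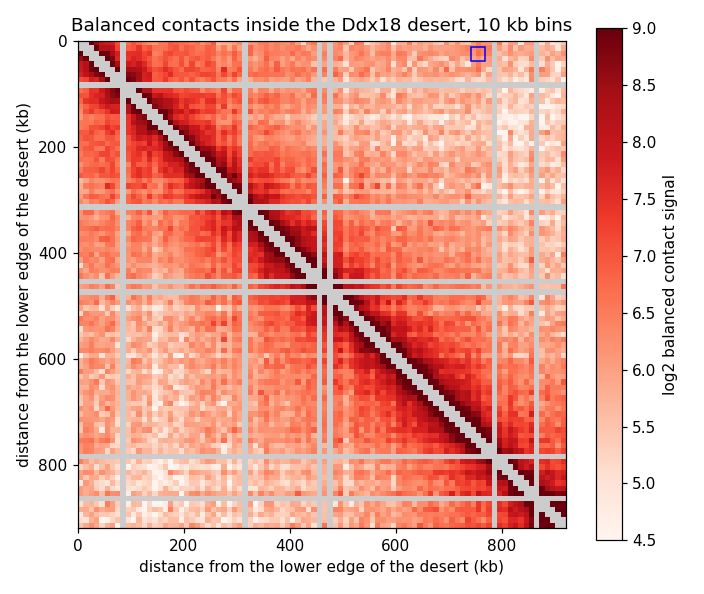
Balanced contact signal (log2, colour) between the 10 kb bins of the Ddx18 desert, with both axes in kb from its lower edge. Grey marks the 6 low bins and pairs closer than 20 kb, and the blue square marks the pair of bins 730 kb apart that had 126 read pairs. The signal is strongest along the diagonal and shows no sharp internal corner.

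Contacts inside the desert fell steadily with distance and less steeply than over the map as a whole. The balanced signal (KR, a deposited value that balancing scales to 1 common total per bin) at distances of 20, 50, 100, 200, 300 and 500 kb averaged 698, 274, 153, 95.4, 69.1 and 53.3 per pair. The whole map gave 672, 262, 143, 83.1, 58.3 and 36.0 at the same distances. The log-log slope from 30 to 500 kb was −0.709 (−0.716 to −0.703) in the desert and −0.855 (−0.857 to −0.853) over the map. On raw counts the desert's slope was −0.713.

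The decay flattened as the distance grew. The desert's slope was −0.808 from 30 to 200 kb and −0.632 from 200 to 500 kb. From 500 to 900 kb it was −0.144 (−0.267 to −0.0209), where the whole map fell with a slope of −1.25. The raw counts gave −0.437 (−0.548 to −0.326) for the desert over that last range. The balanced signal was 53.1 at 700 kb (20 pairs), 49.9 at 800 kb (10 pairs) and 46 at 900 kb (2 pairs), against 25.4, 20.8 and 17.9 over the map. The mean of the 10 pairs at 800 kb was thus close to the mean at 500 kb (53.3). Those 10 pairs all join the lowest part of the desert to its last part, beside the map's end. Positions in the middle of the desert are not sampled at that distance.

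Relative to the map, the desert's balanced signal was 1.05 times as high at 20 to 90 kb, 1.08 times from 100 to 200 kb, 1.2 times from 210 to 300 kb, 1.30 times from 310 to 400 kb and 1.42 times from 410 to 500 kb. At 510 to 900 kb it was 1.97 times as high (1.94 to 2.01), for pairs that only join the lower part of the desert to its upper part. On raw counts, where the desert's lower coverage enters, the same ratios were 0.657, 0.687, 0.750, 0.819, 0.859 and 1.17 (1.15 to 1.19). Both scales thus rose by distance class, and they differed in level.

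The desert ends where the map ends, and bins there have partners on one side only, while balancing still gives them the same total. Without the bins in the last 150 kb of the map, 73 bins remained and the slope from 30 to 500 kb was −0.688. The ratio to the map at 510 to 760 kb was then 2.15 (2.09 to 2.21) on balanced values, against 1.78 with those bins, and 1.41 (1.38 to 1.44) on raw counts, against 1.09. Both ratios were larger without those bins. The deposited balancing factors of the other bins stay as they are in this setting, so the part of balancing at the map's end in the balanced values was not tested.

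**Figure D2:**
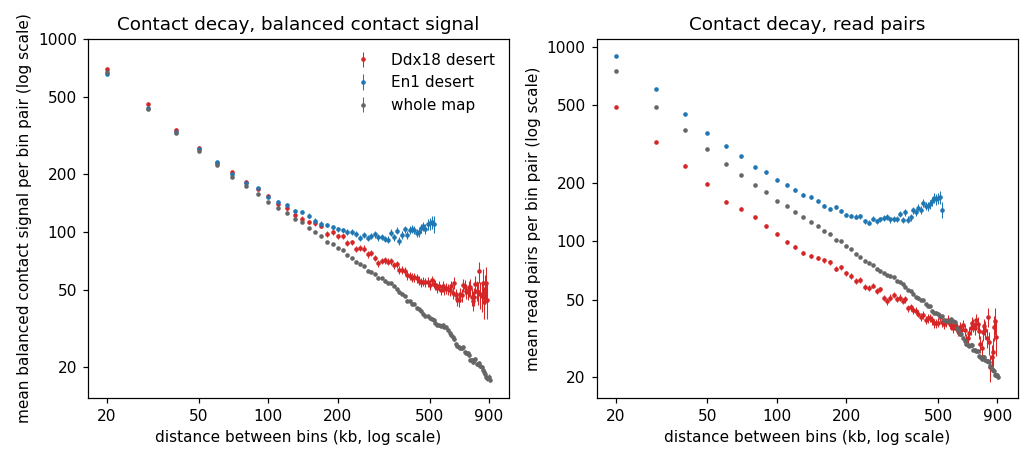
Mean balanced signal (left) and mean read pairs (right) per bin pair against the distance between the bins in kb, on log axes, for the Ddx18 desert (red), the desert beside En1 (blue) and the whole map (grey). Points are means over at least 3 pairs and bars are 95% counting intervals. From 200 to 500 kb the desert beside En1 rises (slope 0.08 on the left, 0.25 on the right) and the Ddx18 desert falls (−0.632 and −0.644), with a shallower fall from 500 to 900 kb (−0.144 and −0.437).

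The desert beside En1, from 122.51 to 123.06 Mb, holds 1 annotated gene, the lincRNA B230209K01Rik, and 0 protein-coding genes. It spans 550000 bp, with 55 kept bins, 1431 pairs at 20 kb or more and 324262 read pairs. On balanced values the deserts had a like signal at short range and parted with distance. The ratio of the Ddx18 desert to the desert beside En1 was 1.03 (1.02 to 1.04) for pairs 20 to 90 kb apart, 0.952 for 100 to 200 kb, 0.840 for 210 to 300 kb, 0.697 for 310 to 400 kb and 0.540 (0.527 to 0.553) for 410 to 500 kb. Over 100 to 500 kb as a whole it was 0.771. On raw counts the ratio was below 1 at short range too, at 0.538 (0.535 to 0.542) for 20 to 90 kb, and fell to 0.254 (0.248 to 0.260) for 410 to 500 kb.

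The slope from 30 to 500 kb was −0.429 (−0.436 to −0.422) in the desert beside En1, so that the Ddx18 desert was steeper by a difference of −0.280. Up to 200 kb the slopes were closer, at −0.808 and −0.740. From 200 to 500 kb the desert beside En1 had a slope of 0.08 (0.05 to 0.11) on balanced values and 0.25 (0.22 to 0.28) on raw counts, with balanced signals of 103, 94.0, 96.7 and 111 at distances of 200, 300, 400 and 500 kb. At 500 kb a pair there joins the opposite ends of that desert. The 38 pairs at 500 kb in the Ddx18 desert include bins at its edges and bins further inside, so the distance classes do not sample like positions.

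Single pairs scattered to a similar degree in both deserts once counting error was taken off. At 100 to 500 kb the SD of observed/expected over pairs, with each desert's own mean at a distance as the expected value, was 0.251 in the Ddx18 desert, of which counting gave 0.144, leaving 0.205. In the desert beside En1 these values were 0.215, 0.0914 and 0.194. When each desert was cut into 4 equal segments, the 10 blocks of segment against segment had summed observed/expected values of 0.903 to 1.04 in the Ddx18 desert and 0.947 to 1.04 beside En1. Each desert's own mean sets these values near 1, most of all in the block of the outermost segments, which alone holds the longest distances.

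Insulation was strong at the desert's lower edge and weak inside it. The insulation score is the log2 mean balanced signal between the 150 kb on either side of a bin, relative to the median bin of the map, and a low value means few contacts across the bin. The bin at 123.47 Mb, next to the desert, was a local minimum with a score of −0.91 ± 0.01 (counting SE) and a prominence of 1.09. The desert's own lowest score was −0.86, in its first bin at 123.48 Mb, on the flank of that minimum. Over all 398 scored bins of the map the scores ran from −1.44 to 0.59.

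Beyond the reach of the edge the desert was nearly flat. The 59 scored bins at least 150 kb above the edge had scores of −0.13 (at 123.77 Mb) to 0.18 (at 124.11 Mb), with an SD of 0.0738 over bins and a median counting SE of 0.0115. Their variation was thus larger than counting error, yet their range of 0.313 was small beside the range of 2.04 over all scored bins of the map. The last 150 kb of the desert has no score, because the window would pass the end of the map.

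Inside the desert 2 shallow local minima reached a prominence of 0.2. The first lay at 123.77 Mb (score −0.13, prominence 0.227) and the other at 123.96 Mb (score −0.08, prominence 0.210). The second lies next to the low bin at 123.95 Mb, which holds CTCF match 3. A window of 100 kb and the raw counts each gave 2 minima, keeping the low bins gave 1 and a window of 250 kb gave 0, so these shallow minima depended on the setting. The desert beside En1 had 55 scored bins, from −0.92 at its lowest bin (122.51 Mb) to 0.19, and no local minimum of prominence 0.2. That lowest bin is its first, near the map's lowest score of −1.44 at 122.46 Mb. The inner bins of that desert were not summarised apart from its edge, so the flatness of both deserts is not compared here.

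**Figure D3:**
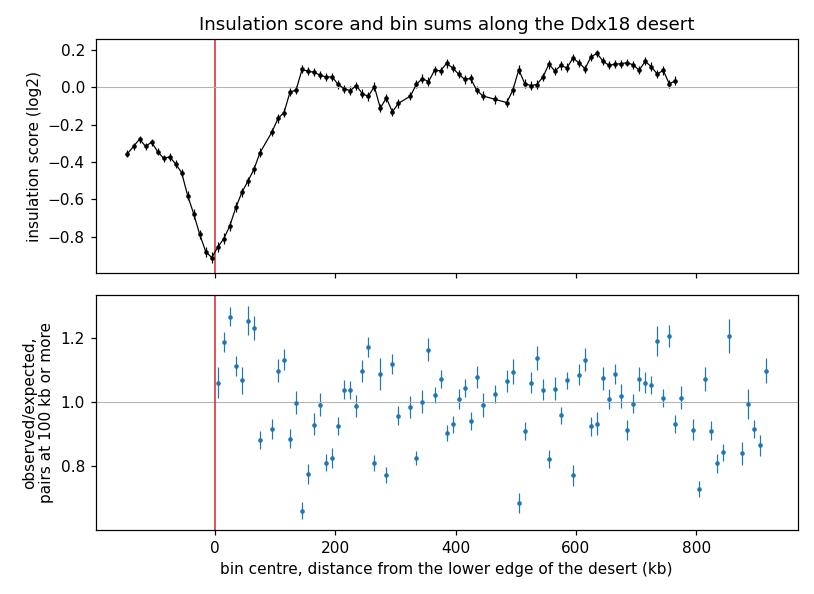
Top, insulation score (log2) of each scored 10 kb bin around and inside the Ddx18 desert. Bottom, observed/expected of each kept bin summed over its desert partners at 100 kb or more. The x axes give the distance in kb from the lower edge (red line), and bars are 95% counting intervals. The score climbs from −0.86 at the edge and stays between −0.13 and 0.18 from 150 kb on, and the bin sums run from 0.661 to 1.27.

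Of the desert's contacts within the map, most at 20 kb or more stayed inside it. Partners above the end of the map are not in this share, which thus covers only the desert and the bins below it. Of 468616 read pairs with at least 1 end in the desert and at least 20 kb between the ends, 301547 had both ends in it, or 64.3% (Wilson interval 64.2% to 64.5%). For these pairs at 20 kb or more, distance and the balancing factors of the bins gave an expected share of 51.1%. The reference was the mean signal of the whole map at each distance. At 100 kb or more the observed share was 50.3%, for which no expected share is given. Contacts inside the desert were 1.13 times the expected count and contacts with all kept bins below it 0.654 times. These values are linked, since balancing gives each bin the same total.

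The depletion below the edge differed by partner. Contacts with the domain that holds Insig2 and Ddx18, from 123.10 Mb to the insulation minimum at 123.47 Mb, were 0.630 times the expected count (67571 read pairs). Contacts with the En1 domain, from 122.47 to 123.09 Mb, were 0.546 times (39959 read pairs), the lower value for the farther domain. Contacts with the domain that holds Steap3 and Marco, from 122.05 to 122.46 Mb, were 0.897 times (20465 read pairs), and those with the rest of the map below 0.723 times. The En1 domain had the lowest of these 4 values, and their counting intervals did not overlap. The reference includes the desert's own pairs, whose share of all pairs grows with distance. This draws the values of far partners towards 1, so the partners cannot be ranked by depletion from these values. The part of the reference in their differences was not tested.

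The bins next to the edge had higher observed/expected values with the desert than with the domain below. Balancing gives each bin the same total, so low values on one side go with high values elsewhere by construction. Each of the first 8 bins, from 123.48 to 123.55 Mb, had 1.19 to 1.76 times the expected contacts with desert partners at 100 kb or more, and 0.386 to 0.663 times with the Insig2 and Ddx18 domain. Values above 1 were common in the desert: its pairs at 100 kb or more had a median of 1.26, and 2340 of 2973 were above 1. The lowest of the 8, 1.19 at 123.55 Mb, was under that median. That bin had 0.882 times the count expected from desert pairs. The bin at 123.50 Mb had the highest value into the desert, 1.76 (1.72 to 1.80, 6910 read pairs), and 0.578 (0.557 to 0.599, 2993 read pairs) into that domain. From 20 to 460 kb this bin had 1.21 times the expected contacts upwards (5954 read pairs) and 0.614 times downwards (3895 read pairs). CTCF match 1 lies in the bin at 123.48 Mb. It was singled out after its position beside these bins was seen.

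The bin at 123.50 Mb also stood first when compared with the desert alone. With the mean of desert pairs at each distance as the expected value, its sum over desert partners at 100 kb or more was 1.27 (1.24 to 1.30), the highest of 86 bins. It was followed by the bins at 123.53 Mb (1.25), 123.54 Mb (1.23), 124.23 Mb (1.21) and 124.33 Mb (1.21). The lowest sums were 0.661 at 123.62 Mb and 0.683 at 123.98 Mb. The median was 1.01, with 5 bins at 1.2 or more and 6 at 0.8 or less. The bin at 124.23 Mb, the other end of the pair described next, was thus among the highest.

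The pair that joins the bins at 123.50 and 124.23 Mb, 730 kb apart, had 126 read pairs. Both bins are intergenic, neither held an exact match to the CTCF core consensus, and their raw totals were 26977 and 18726 read pairs. Other forms of the CTCF motif were not searched. With the whole map as the reference 29.3 read pairs were expected, which put observed/expected at 4.29 (3.58 to 5.11). With desert pairs as the reference 60.7 were expected, and the value was 2.07 (1.73 to 2.47). Part of the excess over the map was thus shared by the other desert pairs at this distance.

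Among desert pairs the pair ranked high but not first. Its balanced signal was 101, the highest of the 16 pairs at 730 kb, whose median was 44.8 and lowest 14.6. Of the 2973 desert pairs at 100 kb or more it ranked 3 by observed/expected under either reference. With desert pairs as the reference, the pairs above it were 123.53 with 123.75 Mb (37 read pairs, 2.14, 1.5 to 2.94) and 123.89 with 124.33 Mb (52 read pairs, 2.10, 1.57 to 2.75). Each of these includes a bin just above the limit for low bins (5954 and 6634 read pairs), and their intervals contain the value of the 730 kb pair.

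The signal around the pair was broad. At 5 kb the 4 quadrants of the pair held 50, 27, 26 and 23 read pairs, with observed/expected values of 6.37 (4.73 to 8.39), 4.39 (2.90 to 6.39), 2.79 (1.82 to 4.08) and 3.02 (1.91 to 4.53), all against the whole map. The highest quadrant joins the lower 5 kb of each bin, and its interval overlaps that of the next. The 24 neighbours within 2 bins had 8 to 107 read pairs and values of 1.13 to 4.07 (median 3.03) against the map, and 18 of their intervals overlapped that of the pair. Against desert pairs the neighbours had values of 0.601 to 1.91 with a median of 1.44.

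Shifts of 1 bin lowered the value on each side, by differing amounts. Moving the lower end to 123.49 Mb gave 102 read pairs and 3.99 (3.25 to 4.84), and moving it to 123.51 Mb gave 67 read pairs and 2.93 (2.27 to 3.72). Moving the upper end to 124.22 Mb gave 102 read pairs and 2.89 (2.36 to 3.51), and moving it to 124.24 Mb gave 107 read pairs and 3.48 (2.85 to 4.2). Of these neighbours, only 124.22 Mb had an interval wholly below that of the pair. The bin at 123.48 Mb, which holds CTCF match 1, had 35 read pairs with 124.23 Mb and a value of 4.06 (2.83 to 5.65). The pair was 1.92 times as high as the ring of pairs 2 to 5 bins away, which had a value of 2.23. That ring reaches down to the bin at 123.45 Mb, across the desert's lower edge. Contacts of the desert with the Insig2 and Ddx18 domain there were 0.630 times the expected count. The part of these bins in the ratio of 1.92 was not tested.

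**Figure D4:**
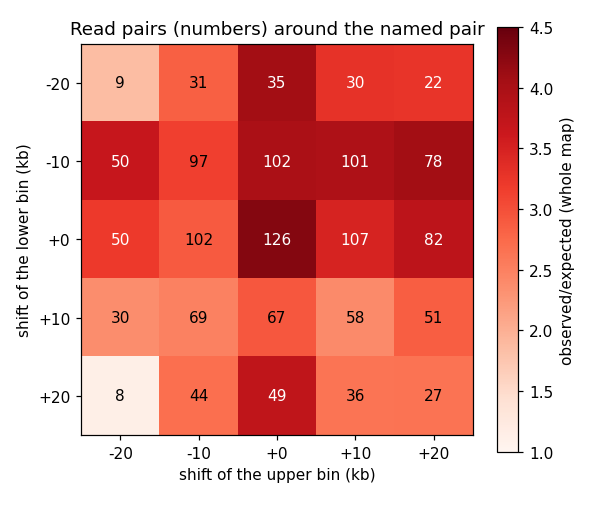
Read pairs (numbers) and observed/expected against the whole map (colour) for the pair of bins at the centre and its 24 neighbours within 2 bins, with both axes in kb of shift from the pair. The centre has 126 read pairs, and the pairs with the same lower end have values of 2.89 to 4.29.

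Both ends of the pair were above the desert's mean with most partners at 100 kb or more, not at the pair alone. Against desert pairs, the bin at 123.50 Mb had values above 1 with 65 of its 75 partners at 100 kb or more above it, with a median of 1.29 (0.643 to 2.07). Without the partners within 2 bins of the pair, 60 of 70 were above 1 and the summed value was 1.25, against 1.27 with them. The sum was 1.12 for partners 100 to 300 kb away, 1.31 for 310 to 500 kb, 1.46 for 510 to 700 kb and 1.32 for 710 to 890 kb. The sum was thus above 1 in each of these distance classes and highest at 510 to 700 kb.

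The bin at 124.23 Mb had values above 1 with 48 of its 62 partners at 100 kb or more below it, and a sum of 1.21 (single values 0.503 to 2.07). Without the partners within 2 bins of the pair these were 43 of 57 and 1.17. In each case the pair itself was the highest single value, at 2.07. The next highest values were 1.82 in the row of 123.50 Mb and 1.89 in that of 124.23 Mb, outside the partners within 2 bins of the pair.

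**Figure D5:**
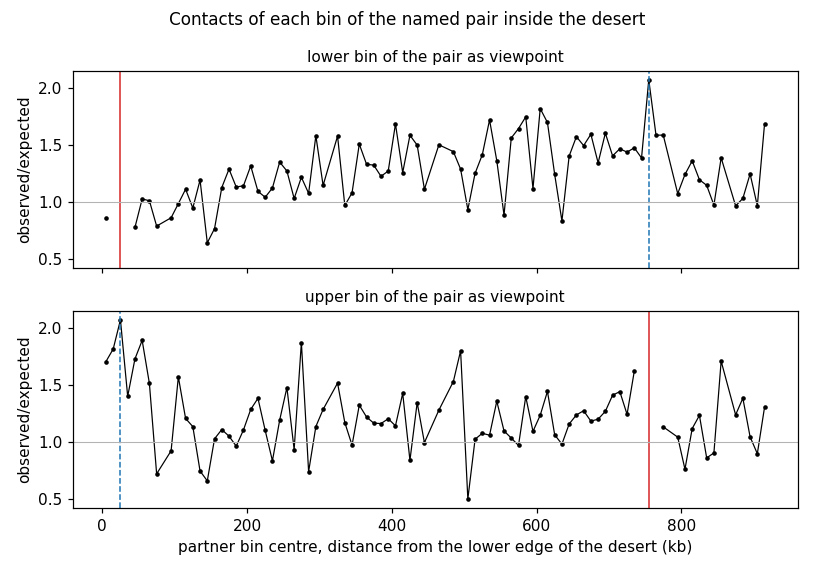
Observed/expected (desert pairs as the reference) of the bin at 123.50 Mb (top) and of the bin at 124.23 Mb (bottom) with each other kept bin of the desert, against the partner's distance in kb from the lower edge. The red line marks the viewpoint bin and the dashed line its partner in the pair. Most points lie above 1, and the partner in the pair has the highest value of each profile (2.07).

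Enriched pairs were called by a rule that asks for at least 100 kb and at least 10 read pairs. The lower Poisson bound of observed/expected against the whole map had to be above 1.5. The observed/expected value itself, not its lower bound, had to be above 1.5 times the value of the ring. In the desert 87 of 2950 pairs tested passed (2.95%, Wilson interval 2.40% to 3.62%), against a background of 2.22% over the 41776 pairs of the whole map (927 called). In the desert beside En1 7 of 1035 passed (0.676%). The background pairs include those of the desert, and as its limits were chosen on this map nothing is read from the difference.

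The called pairs lay mostly at long distance. At 100 to 300 kb 10 pairs of the desert passed (0.758%, against 1.28% over the map), at 310 to 500 kb 23 (2.59% against 1.80%) and at 510 to 910 kb 54 (7.27% against 1.52%). The ratio of the desert's mean signal to that of the map was also highest at these distances (1.97). When desert pairs set the expected value, 7 of the 2950 passed (0.237%), and all 7 were among the 87. Those 7 included the 730 kb pair, its neighbour 123.49 with 124.25 Mb (78 read pairs) and, away from the lower edge, 123.73 with 124.01 Mb (81 read pairs, 1.91 times the desert's expected, 1.52 to 2.38).

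Many called pairs had their lower end near the lower edge. Of the 87, 45 (51.7%) had it in the lowest 80 kb of the desert, where 582 of the tested pairs (19.7%) had theirs. These shares are not matched by distance. Of the 87, 56 lay at 500 kb or more, where the lower end can only be in the lower part of the desert. The 87 pairs formed 45 clusters, 28 of them of a single pair, with a median of 51 read pairs and a median observed/expected value of 2.67. The bins at 123.50 and 124.33 Mb were each in 12 called pairs, 124.39 Mb in 9, and 123.48, 123.49 and 124.23 Mb in 8 each. The bin at 124.33 Mb has a total of 6634 read pairs, just above the limit for low bins, and 124.39 Mb is the last bin of the map. For pairs with a lower end near the edge, the ring takes in bins below the desert. The part of such rings, of coverage and of the map's end in these calls was not tested.

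The 5 clusters with the highest lower bounds each had an end at 123.50 or 123.53 Mb in their leading pair. The 730 kb pair led the largest of them, with 12 pairs. The bin at 123.50 Mb also led with 124.39 Mb (59 read pairs, 4.30, 3.28 to 5.55, 890 kb) and with 124.14 Mb (98 read pairs, 2.93, 2.38 to 3.57, 640 kb). The bin at 123.53 Mb led with 124.17 Mb (64 read pairs, 3.96, 3.05 to 5.06, 640 kb) and with 124.35 Mb (29 read pairs, 4.13, 2.76 to 5.93, 820 kb). These values are against the whole map. Against desert pairs they were 2.07, 1.69, 1.5, 2.02 and 1.38 in the order given, and the interval of the last, 0.925 to 1.98, includes 1.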

How the data were processed

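Both wild-type limb samples entered 1 merged map, and no sample has a column of its own. The authors deposited raw counts of read pairs per bin pair and a balanced contact signal (KR, read as Knight-Ruiz). Per the deposited file names, reads went through HiCUP with a mapping quality minimum of 30 and a length of 50 bp. Bowtie2 2.3.4.1, Juicer 1.7.6 and SAMtools are credited to the submitters' processing notes, with no role stated. The genome is mm9. Sequences and genes came from NCBIM37 and GENCODE M1.

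The region was chr1:123480001-124400000, the comparison desert chr1:122510001-123060000, and the pair chr1:123500001-123510000 with chr1:124230001-124240000. Members and lists were chosen with earlier results of these data known. The regions to be named were the pair with its neighbours, row and column, the 5 leading clusters, insulation minima of prominence 0.2 or more, genes at the desert and CTCF core matches in the pair's bins, and the matches elsewhere were added afterwards. Bins were 10 kb. Bins under 25% of the median total were left out, and balancing factors were recovered as the ratio of raw count to signal. The expected count was the mean signal at a distance times both factors. Intervals were exact Poisson for pairs, Wilson for shares, and propagated counting error for slopes, levels and insulation. Clusters joined called pairs within 2 bins. Alternatives were other bin sizes (5 and 25 kb), windows, references and thresholds. The scripts (Python 3.11.15, NumPy 2.4.6, SciPy 1.17.1) were tested on simulated data. With 1 pooled map no test between groups was run. The 50 kb values were left out, since bins of that size blur the pair.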

Additional observations from a re-analysis of the deposited data

How the results depend on the processing

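Of 48 alternative settings, 12 kept the value within its counting interval or, for the number of enriched pairs (87), within 1.5 times. The slope of the desert was −0.702 with 5 kb bins, −0.699 with 25 kb bins, −0.792 over 20 to 300 kb, −0.637 over 100 to 500 kb and −0.688 without the last 150 kb of the map, a setting added after seeing the data. Its difference from the desert beside En1 was −0.321 on raw counts, −0.264 with 5 kb bins, −0.322 with 25 kb bins, −0.270 with medians, −0.109 over 20 to 300 kb, −0.454 over 100 to 500 kb and −0.258 without the last 150 kb. The contact ratio to that desert was 0.395 on raw counts, 0.735 on raw counts over their mean at 20 to 90 kb (added after seeing the data), 0.759 with medians and 0.779 with low bins kept. It turned to 1.03 at 20 to 100 kb, where other distances enter by construction. The lowest insulation score was −0.75 with a 100 kb window, −0.81 with 250 kb, −1.13 on raw counts, −0.92 with 5 kb bins, −0.76 with 25 kb bins and −0.13 from 150 kb above the edge (added after seeing the data). The 730 kb pair had 2.07 times the expected count against desert pairs, 3.0 with 25 kb bins, 1.92 against its ring and 3.21 on raw desert counts (added after seeing the data). With 5 kb bins the setting took 1 quadrant of the pair, the highest of 4, at 6.37. The other quadrants had 4.39, 2.79 and 3.02. The enriched pairs numbered 118 at a threshold of 1.2, 104 with medians, 86 with at least 20 read pairs, 40 at a threshold of 2, 260 without the ring, 28 with 25 kb bins and 7 with desert pairs as the reference. The share of contacts inside the desert was 70.1% on balanced values, 50.3% at 100 kb or more, 66.1% with 25 kb bins and 64.6% with low bins kept. The cause of these shifts was not tested, and every slope, difference and excess kept its sign except the ratio at 20 to 100 kb.

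No paired analysis was possible because the samples are merged in 1 map, which also kept either sample from being left out. Spread between embryos is therefore unknown, and at 500 kb or more the median pair rests on 32 read pairs.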
